A study of Danio rerio with 15 samples.

Results

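Interferon and STAT signalling was followed in the zebrafish brain through 7 genes: the signal transducers stat2 and stat3, the interferon regulatory factors irf9 and irf1b, the interferon-induced effectors mxa and isg15, and the feedback inhibitor socs3a. They were taken by symbol from 2 tables of 14971 genes, and all 7 were present and passed the filter on low counts in every fit. The fish had been kept for 56 days in water with or without dibromoacetonitrile (DBAN), a nitrogen-containing by-product of water disinfection. Poly(A) RNA of brain tissue was sequenced in 5 groups of 3 libraries: females at 0 µg/L, 40 µg/L and 200 µg/L, males at 40 µg/L and males at 0 µg/L. The groups without DBAN were blank controls. Strain, age and the number of fish behind each library are not given in the labels used here, so the p-values below measure only the spread between these libraries. In bulk tissue, fewer cells of a type and less RNA per cell cannot be told apart.

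Interferons act through cell surface receptors that carry Janus kinases (JAKs), and the kinases phosphorylate STAT proteins. In mammals, type I interferons assemble the complex ISGF3, to which STAT2 and IRF9 belong and which switches on antiviral genes such as those of the Mx and ISG15 families, while interferon gamma induces IRF1. STAT3 lies downstream of cytokines that signal through gp130, such as interleukin 6, and induces SOCS3, which shuts the receptor and its kinase down again. In the brain, microglia, astrocyte-like radial glia, vessels and neurons can all respond to these signals. Zebrafish carry a pair of socs3 genes.

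In females at 200 µg/L, mxa and irf9 were higher than at 40 µg/L, by 5.48-fold and 3.94-fold, and these were the only members called between female groups. In males at 40 µg/L, socs3a was 9.06-fold higher than in males at 0 µg/L, and stat3 was lower. The fitted fold of stat3 was 4.79. Its size is uncertain, since 2 of the exposed values lay under the count floors given below. No member was called between females at 40 µg/L and 0 µg/L, between females at 200 µg/L and 0 µg/L, between the control sexes, or between the responses of the sexes to 40 µg/L. Genes were called at an adjusted p under 0.05 in edgeR's quasi-likelihood test with Benjamini-Hochberg adjustment over all genes tested.

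Depth and complexity differed between the libraries. Totals were 18365050 to 22630829 counts in females at 0 µg/L, 33198859 to 49388334 at 40 µg/L and 10488947 to 17684130 at 200 µg/L; they were 31576124 to 48621981 in males at 40 µg/L and 35666401 to 42122528 in males at 0 µg/L. Counts of 1 to 40 fell on multiples of 4 in 40.5% to 49.6% of cases, more often than evenly spread counts would. Most of them were still not multiples of 4. That 1 fragment was worth about 4 counts is therefore a possibility only, and division by 4 was run as an alternative. Rare genes were those with counts in a library but none in 10 or more of its 14 companions. Their median count was 39, 40.5 and 132 in males at 40 µg/L, against 8, 9 and 8 in males at 0 µg/L. It was 8, 11 and 8 in females at 0 µg/L, 28, 8 and 35 at 40 µg/L, and 10, 17 and 8 at 200 µg/L. A high value can mean that few molecules were counted many times, and 3 times this median was used as a floor for each library. Of the 105 member values, 13 lay under their floor: 1 of 21 in females at 0 µg/L, 3 at 40 µg/L, 1 at 200 µg/L, 8 in males at 40 µg/L and 0 in males at 0 µg/L. Summed neuronal markers ranged from 9314 to 11370 CPM over the 15 libraries (CPM being the count relative to the TMM-scaled library size), and of the 11 neuronal markers in the files only syt1b was at 0 throughout a group.

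**Figure D1:**
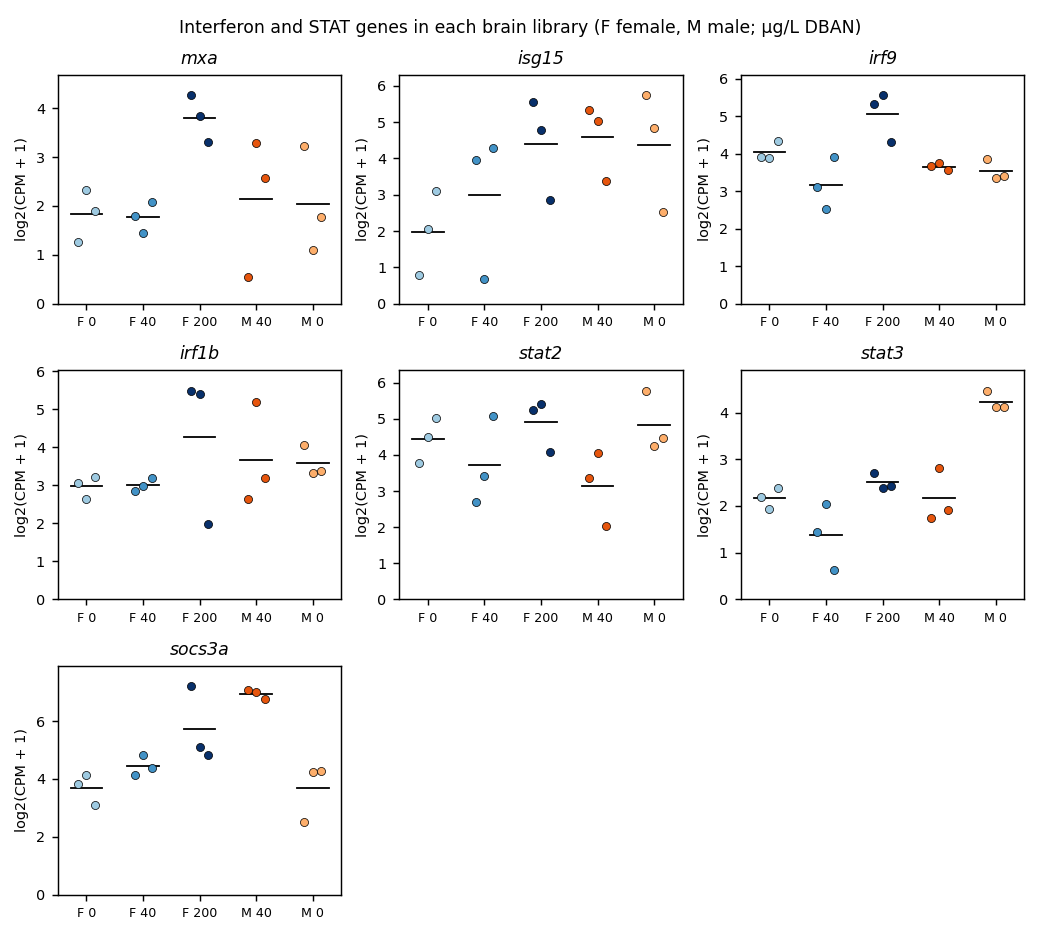
Level of each gene in each library, as log2(CPM + 1), with points for libraries and bars for group means of the log values (F female, M male, DBAN in µg/L). mxa stood apart at 200 µg/L in females, stat3 was highest in males at 0 µg/L, and socs3a lay between 107.9 and 134.7 CPM in males at 40 µg/L.

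stat2, a transducer of type I and type III interferon signals in mammals (chromosome 6, 39123644 to 39158953 in the deposited tables, whose build is not named), measured 12.8, 21.7 and 31.8 CPM in females at 0 µg/L, 5.46, 9.58 and 32.9 CPM at 40 µg/L, and 37.3, 42.0 and 16.0 CPM at 200 µg/L. All 3 female groups overlapped. In males stat2 measured 9.27, 15.5 and 3.12 CPM at 40 µg/L, against 53.8, 18.0 and 21.0 CPM at 0 µg/L, with no overlap between the groups. The lowest exposed value, in replicate 3, was 103 counts, under a floor of 396. The fitted log2 difference of males at 40 µg/L from males at 0 µg/L was -1.74 ± 0.69 (SE, n = 3 each; edgeR adjusted p = 0.138), and -1.06 without replicate 1 at 0 µg/L. With the rare-gene median as a covariate, its sign turned and it became 1.39. In the males, exposure and rare-gene median moved together and cannot be told apart.

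irf9, the DNA-binding subunit of ISGF3 (chromosome 12, 13282763 to 13306886), was 1 of the 2 members called in females. It measured 14.0, 13.7 and 19.2 CPM in females at 0 µg/L, 7.65, 4.73 and 14.0 CPM at 40 µg/L, and 39.0, 46.1 and 18.9 CPM at 200 µg/L. The 3 libraries at 200 µg/L lay above all 3 at 40 µg/L, while the lowest of them, 18.9 CPM, lay just under the highest control. irf9 averaged 34.7 ± 14.1 CPM at 200 µg/L and 8.80 ± 4.75 CPM at 40 µg/L (SD, n = 3 each). Between these doses it rose by 1.98 ± 0.46 on the log2 scale (SE; edgeR adjusted p = 0.0421). Against 0 µg/L the log2 difference of females at 200 µg/L was 1.15 ± 0.45 (edgeR adjusted p = 0.381). Males held a narrow range, 11.7, 12.4 and 10.8 CPM at 40 µg/L and 13.5, 9.21 and 9.60 CPM at 0 µg/L, and their groups overlapped. Replicate 3 of males at 40 µg/L lay under its floor, with 356 counts against 396.

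mxa encodes an antiviral GTPase of the dynamin superfamily and is a standard readout of interferon in fish (chromosome 1, 7562323 to 7570219). It measured 1.41, 4.01 and 2.73 CPM in females at 0 µg/L, 2.45, 1.71 and 3.23 CPM at 40 µg/L, and 18.2, 13.3 and 8.97 CPM at 200 µg/L. Every library at 200 µg/L was above every other female library, and the libraries at 40 µg/L overlapped those at 0 µg/L. mxa averaged 13.5 ± 4.64 CPM at 200 µg/L, against 2.46 ± 0.762 CPM at 40 µg/L (SD, n = 3 each), a rise of 2.45 ± 0.58 on the log2 scale (SE; edgeR adjusted p = 0.0440). Against females at 0 µg/L, at 2.72 ± 1.30 CPM (SD, n = 3), the log2 difference of females at 200 µg/L was of like size, 2.32 ± 0.58, with an edgeR adjusted p of 0.177. Males showed no such separation: 0.467, 8.79 and 4.97 CPM at 40 µg/L and 8.34, 1.15 and 2.43 CPM at 0 µg/L. Replicates 1 and 3 of males at 40 µg/L lay under their floors, so an absence of change in males cannot be read from these values. The neighbour of mxa, mxb, lies at 7574351 to 7603573. Since the Mx genes are near copies and how shared reads were counted is unknown, the split of reads among them is uncertain.

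The calls of mxa and irf9 between 200 µg/L and 40 µg/L lay close to the threshold. Without any 1 of the 9 female libraries, whether at 0, 40 or 200 µg/L, both adjusted p-values passed 0.05, to 0.0544 to 0.138 for mxa and to 0.058 to 0.147 for irf9, while the log2 differences stayed between 2.18 and 2.70 and between 1.68 and 2.49. Rare-gene medians in these females were 10, 17 and 8 at 200 µg/L and 28, 8 and 35 at 40 µg/L. An alternative chosen after seeing the data kept replicate 2, whose median was 8, as the only library at 40 µg/L. The log2 differences were then 2.99 for mxa and 2.89 for irf9. Replicate 2 was the lowest of its group for both genes, at 1.71 and 4.73 CPM, so larger differences had to follow from this choice. That single library was assumed to vary like the libraries of the other groups, so no p-value is given.

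Among the female groups, summed microglial and macrophage markers were also highest at 200 µg/L. Of 21 listed, 18 were in the files, and their summed level was 118.0 to 181.2 CPM in females at 0 µg/L, 139.4 to 223.8 CPM at 40 µg/L and 227.7 to 305.0 CPM at 200 µg/L. Summed lymphocyte and natural killer cell markers (13 of 16 in the files) were 8.76 to 12, 8.14 to 14.4 and 10.9 to 39.2 CPM at 0, 40 and 200 µg/L, with cd8a, nkl.2, nkl.3 and nkl.4 at 0 in all 9 libraries. Endothelial markers summed to 228.6 to 275.8, 372.8 to 582.1 and 416.3 to 619.6 CPM, and so were higher at 40 µg/L and at 200 µg/L than at 0 µg/L. Neutrophil markers summed to 18.3 to 37.9, 18.3 to 43.0 and 4.88 to 21.7 CPM, with the lowest values at 200 µg/L. The part of these cells in the values of mxa and irf9 was not tested.

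isg15, a ubiquitin-like protein that is attached to other proteins during antiviral responses (chromosome 5, 20112032 to 20113286), had the widest range of the members, 85.9-fold from lowest to highest. Its lowest value, in replicate 2 of females at 40 µg/L, was 20 counts, under a floor of 24. Replicate 1 of females at 0 µg/L and replicate 3 of males at 40 µg/L also lay under their floors. In females it measured 0.729, 3.16 and 7.54 CPM at 0 µg/L, 14.5, 0.610 and 18.7 CPM at 40 µg/L, and 45.7, 26.7 and 6.23 CPM at 200 µg/L. The doses overlapped, replicate 3 at 200 µg/L lying under the highest control. The log2 difference of females at 200 µg/L from females at 0 µg/L was 2.78 ± 1.22 (SE, n = 3 each; edgeR adjusted p = 0.457). It was 2.11 without replicate 1 at 200 µg/L and 3.75 without replicate 3 at 0 µg/L. Males measured 39.6, 32.0 and 9.33 CPM at 40 µg/L and 52.4, 27 and 4.76 CPM at 0 µg/L, again with overlap. Between controls, the log2 difference of females from males was -2.88 ± 1.2 (SE; edgeR adjusted p = 0.197), and between -3.86, without female replicate 3 at 0 µg/L, and -2.08, without male replicate 1 at 0 µg/L.

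irf1b is 1 of 2 zebrafish counterparts of IRF1, a transcription factor that interferon gamma induces in mammals (chromosome 21, 45626893 to 45633022). It measured 7.39, 5.17 and 8.32 CPM in females at 0 µg/L, 6.21, 6.81 and 8.13 CPM at 40 µg/L, and 43.6, 40.9 and 2.91 CPM at 200 µg/L. The group at 200 µg/L held both the 2 highest libraries of the series and the lowest. Its log2 difference was 2.05 ± 0.73 from females at 40 µg/L (SE, n = 3 each; edgeR adjusted p = 0.144) and 2.07 ± 0.73 from females at 0 µg/L (edgeR adjusted p = 0.342); the comparisons share the libraries at 200 µg/L. Males measured 5.18, 35.3 and 8.18 CPM at 40 µg/L, where replicate 2 stood alone, and 15.7, 9.02 and 9.32 CPM at 0 µg/L. Replicate 3 of males at 40 µg/L lay under its floor, with 270 counts against 396.

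stat3, the transducer below gp130 cytokines that also takes part in retinal regeneration in zebrafish (chromosome 3, 17030665 to 17107445), had its highest levels in control males. Males measured 2.34, 6.08 and 2.79 CPM at 40 µg/L, against 21.1, 16.3 and 16.3 CPM at 0 µg/L. The lowest control male was above every other library of the series. stat3 averaged 3.73 ± 2.04 CPM in males at 40 µg/L and 17.9 ± 2.75 CPM in males at 0 µg/L (SD, n = 3 each), a fall of 2.26 ± 0.52 on the log2 scale (SE; edgeR adjusted p = 0.0334). The raw counts were 60, 273 and 92 at 40 µg/L and 1034, 795 and 644 at 0 µg/L. Replicates 1 and 3 at 40 µg/L lay under their floors of 117 and 396 counts, so the size of the fall is uncertain. The call was lost without replicate 1, 2 or 3 at 0 µg/L (edgeR adjusted p = 0.157, 0.112 and 0.102) and without replicate 1 or 3 at 40 µg/L (0.0617 and 0.0532), and it held without replicate 2 at 40 µg/L (0.02). With the rare-gene median as covariate the log2 difference was -1.34, with an adjusted p of 0.531.

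Female stat3 was low at every dose: 3.6, 2.85 and 4.20 CPM at 0 µg/L, 1.70, 3.11 and 0.554 CPM at 40 µg/L, and 5.53, 4.23 and 4.40 CPM at 200 µg/L. The libraries at 200 µg/L lay above those at 0 µg/L and 40 µg/L by narrow margins, and 2 of the libraries at 40 µg/L and 1 at 200 µg/L were under their floors. Between controls, stat3 averaged 3.55 ± 0.678 CPM in females and 17.9 ± 2.75 CPM in males (SD, n = 3 each). The log2 difference of control females from control males was -2.33 ± 0.68 (SE; edgeR adjusted p = 0.0686). Next to stat3 lies stat5a (17129276 to 17331900), which measured 0, 0.979 and 0 CPM in males at 40 µg/L, against 4.77, 5.10 and 4.05 CPM in males at 0 µg/L, and stayed between 0 and 4.51 CPM in females. The control male values lay under the mean floor of 6.42 CPM in males at 40 µg/L, so no fall of stat5a can be read from them.

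socs3a, the feedback inhibitor of gp130 and JAK signalling (chromosome 3, 57423137 to 57425959), showed the reverse order in males. It measured 134.7, 126.1 and 107.9 CPM in males at 40 µg/L, against 4.71, 17.8 and 18.3 CPM in males at 0 µg/L. The lowest exposed library was well above the highest control. socs3a averaged 122.9 ± 13.7 CPM at 40 µg/L and 13.6 ± 7.71 CPM at 0 µg/L (SD, n = 3 each), a rise of 3.18 ± 0.51 on the log2 scale (SE; edgeR adjusted p = 0.0131). Without replicate 2 of the control males the adjusted p was 0.0503, and with the rare-gene median as covariate the log2 difference was 3.49 with an adjusted p of 0.18. All 3 exposed values lay far above their floors of 4.56, 2.70 and 12 CPM.

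Markers of some other cells and tissues differed between the same male groups. Connective tissue and skin markers (12 of 13 in the files) summed to 522.0 to 960.3 CPM in males at 40 µg/L, where lum was at 0, against 215.4 to 277.1 CPM at 0 µg/L. Endothelial markers (12 of 14) summed to 354.1 to 721.6 CPM, against 214.5 to 302.4 CPM. Lymphocyte and natural killer cell markers (13 of 16) summed to 17.5 to 28.0 CPM, against 4.09 to 6.54 CPM, with cd8a, nkl.2, nkl.3 and nkl.4 at 0 in both groups. Radial glia markers (10 of 10) were lower, at 2121 to 3102 CPM in males at 40 µg/L, against 3736 to 4426 CPM at 0 µg/L. None of these summed levels overlapped between the male groups, nor did those of leukocytes. The summed markers of microglia and macrophages, neutrophils, blood, neurons, and oligodendrocytes and myelin did overlap. Of all single genes, 44.8% had male groups that did not overlap. The part of these cells in the values of stat3, socs3a and the male pathway genes was not tested.

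In females socs3a measured 13.1, 16.7 and 7.66 CPM at 0 µg/L, 16.5, 27 and 19.8 CPM at 40 µg/L, and 145.6, 33.7 and 27 CPM at 200 µg/L. Every library at 200 µg/L exceeded every library at 0 µg/L, and replicate 1 at 200 µg/L was the highest of the 15. The lowest library at 200 µg/L, replicate 3, and the highest at 40 µg/L, replicate 2, both rounded to 27 CPM. The library at 200 µg/L was higher by a very narrow margin only, so these doses were barely apart. The log2 difference of females at 200 µg/L was 2.47 ± 0.61 from 0 µg/L (SE, n = 3 each; edgeR adjusted p = 0.176) and 1.71 ± 0.59 from 40 µg/L (edgeR adjusted p = 0.135). Both values rest on replicate 1, without which they were 1.29 and 0.53. The 40 µg/L effect in females minus that in males was -2.41 ± 0.62 on the log2 scale, with an edgeR adjusted p of 0.179, so a difference between the sexes was not called.

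**Figure D2:**
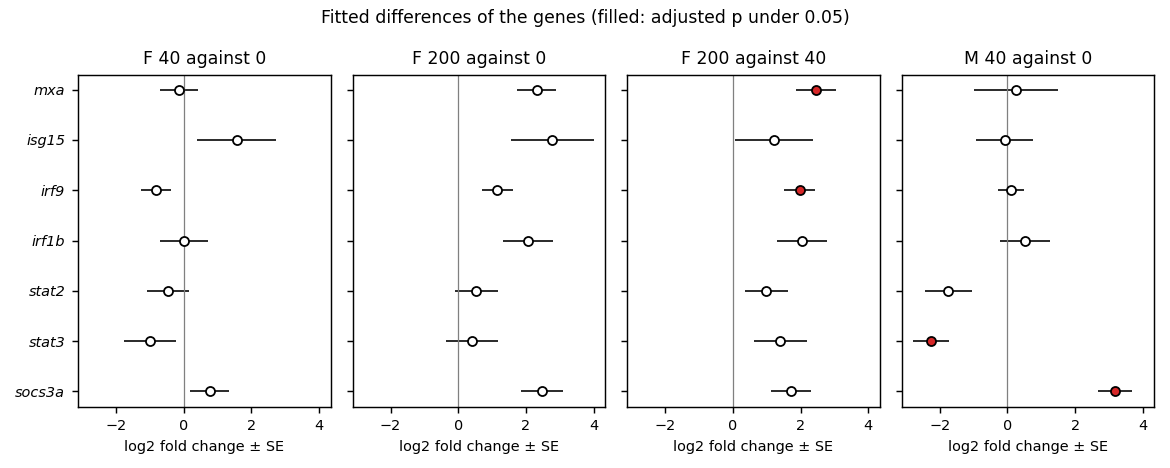
Fitted log2 fold change of each gene in 4 comparisons (points, with bars of 1 SE; filled where the adjusted p was under 0.05; F female, M male, DBAN in µg/L). The filled points are mxa (2.45) and irf9 (1.98) in females at 200 µg/L against 40 µg/L, and stat3 (-2.26) and socs3a (3.18) in males at 40 µg/L against 0 µg/L.

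Set against all genes, the counts of members were as follows. In females at 200 µg/L against 40 µg/L, 2 of 7 members were called, both higher, where 3.93% of 12601 genes were called (1.87% higher and 2.06% lower). Of the members 4 had an unadjusted p under 0.05, against 21.1% of all genes. Groups did not overlap for 4 members (mxa, irf9, stat3 and, by a very narrow margin, socs3a), against 25.3% of all genes. DESeq2 called 4 members there and 1396 of all genes (11%). Fitted log2 differences were above 0 for 7 of 7 members, with a median of 1.71, while 50.4% of all genes lay above 0 with a median of 0.01. In males at 40 µg/L against 0 µg/L, 2 of 7 members were called, 1 in each direction, where 15.6% of 12454 genes were called (8.38% higher and 7.25% lower). DESeq2 called 2 members and 24.8% of all genes. The unadjusted p was under 0.05 for 3 members, against 30.8% of all genes. Groups did not overlap for stat2, stat3 and socs3a, 3 of 7 members, against 44.8% of all genes. Log2 differences were above 0 for 4 of 7 members and 44.5% of all genes. The median over all genes was itself -0.16 in males, and the median over the members was 0.10.

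In females at 200 µg/L against 0 µg/L, edgeR called 0 of 7 members and 0.0556% of all genes. Groups were apart for 3 members (mxa, socs3a and, very narrowly, stat3), against 17.9% of genes. For stat3 the nearest values were 4.23 CPM at 200 µg/L, under its floor, and 4.2 CPM at 0 µg/L. There 5 members had an unadjusted p under 0.05, as had 10.8% of all genes, and DESeq2 called 2 members, mxa and socs3a, and 2.6% of all genes. Members lay above 0 in 7 of 7 cases with a median log2 difference of 2.07, while 50.2% of all genes lay above 0 with a median of 0.00322. In females at 40 µg/L against 0 µg/L, edgeR called 0 of 7 members and 0.238% of all genes. No member had an unadjusted p under 0.05 there, against 15.3% of all genes, DESeq2 called 0 members and 6.26% of genes, and no member had groups apart, against 25% of genes. Of the 7 members 3 had a log2 difference above 0, as had 48.1% of all genes. These female comparisons share libraries, so their values are given side by side only.

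When the response to 40 µg/L was compared between females and males, edgeR called 0 members and 0% of 13149 genes. Only socs3a had an unadjusted p under 0.05, as had 14.5% of all genes, and DESeq2 called 1 member, socs3a, and 3.47% of genes. Between females and males at 0 µg/L, edgeR called 0 members and 4.4% of genes. The unadjusted p was under 0.05 for stat3 and isg15, 2 of 7 members, against 20.4% of all genes, and DESeq2 called both of these and 12.8% of genes. Groups of the control sexes did not overlap for irf9, irf1b and stat3, against 39.9% of all genes.

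Libraries of a group differed together across members. In females at 200 µg/L, replicate 1 was the highest of its group for 5 of 7 members and replicate 3 the lowest for 6 of 7. In males at 0 µg/L, replicate 1 was the highest for 6 of 7 members and the lowest for the remaining one, socs3a. In males at 40 µg/L, replicate 2 was the highest for 5 members and replicate 3 the lowest for 4, and in females at 40 µg/L replicate 3 was the highest for 5. Over all 15 libraries, replicate 1 of females at 200 µg/L held the highest value of mxa, irf1b and socs3a, and replicate 1 of control males that of isg15, stat2 and stat3. Summed leukocyte markers (5 of 8 in the files) were 313.2, 112.7 and 134.2 CPM in replicates 1, 2 and 3 of females at 200 µg/L, and blood markers 14890, 1346 and 1885 CPM. Connective tissue and skin markers were 2840, 378.9 and 311.6 CPM in these replicates, and 1605 CPM in replicate 1 of females at 40 µg/L. The part of these cells in the members' values was not tested.

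**Figure D3:**
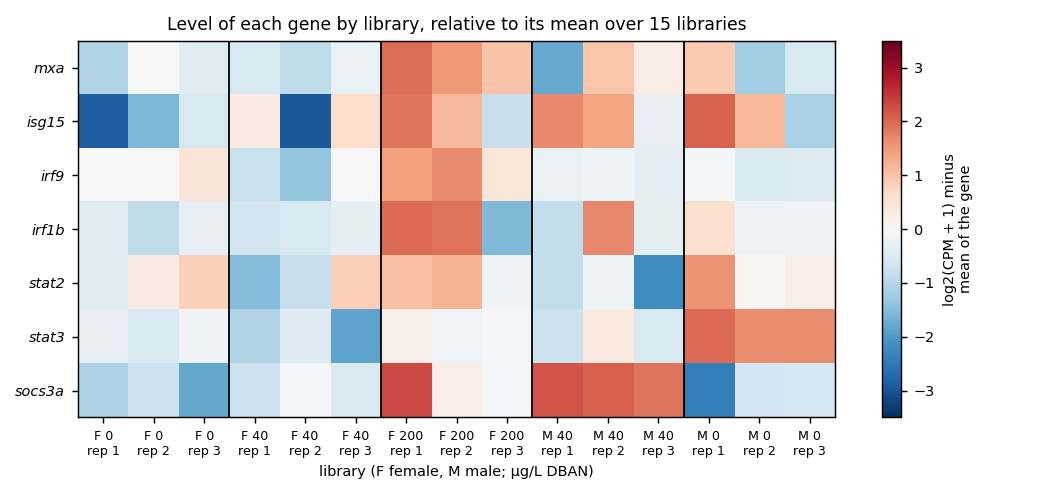
Level of each gene in each library as log2(CPM + 1) minus the gene's mean over the 15 libraries, with red above and blue below that mean (F female, M male, DBAN in µg/L). Replicates 1 and 2 of females at 200 µg/L were high for irf1b (43.6 and 40.9 CPM), and replicate 3 was low (2.91 CPM).

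Among the 21 pairs of members, the closest over the 15 libraries were mxa with irf9 (Pearson r of log2(CPM + 1) = 0.705), mxa with irf1b (0.66) and irf9 with stat2 (0.608). Of 13343 genes, mxa was most like mxe, another Mx gene (r = 0.862), and then gstp1, a glutathione transferase (r = 0.841). mxe lay under its floor in every library of females at 0 µg/L and 40 µg/L and of males at 40 µg/L. It was also under its floor in replicate 2 of females at 200 µg/L, so its correlation rests on low counts. isg15 was most like ifi27.2 and ifi27.1, of the family of interferon alpha-inducible protein 27 (r = 0.855 and 0.812). These are descriptions over libraries that share dose groups, and the ifi27 genes, like the Mx genes, may share reads.

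The other members had nearest genes outside the interferon lists. irf9 was most like ccr9a, a chemokine receptor gene (r = 0.879), and irf1b like lrata, a retinol acyltransferase gene (r = 0.883). Both correlations rest on counts near 0, since ccr9a was at 0 in 9 of 15 libraries and over its floor in 1, and lrata was at 0 in 7 and over its floor in 0. stat2 was most like hacl1, a peroxisomal lyase gene (r = 0.863). stat3 was most like pfn2, an actin-binding profilin gene (r = 0.964), and canx, the endoplasmic reticulum chaperone calnexin (r = 0.916). socs3a was most like the transcription factor gene foxc1a (r = 0.913), the myelin gene zwi (r = 0.902) and the inducible heat shock gene hsp70.3 (r = 0.888).

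The rest of the pathway was followed in 212 listed genes, of which 151 were in the files. At the top of the pathway, transcripts of the interferons were scarcely seen. All 6 listed ligands were in the files, and ifnphi2, ifnphi4 and ifng1r were at 0 in all 15 libraries. ifnphi1, a type I interferon of fish, ranged from 0 to 4.76 CPM, and its highest value, 87 counts, was in replicate 1 of females at 200 µg/L, where replicates 2 and 3 were at 0. ifng1, interferon gamma, was seen in that library (13 counts, 0.712 CPM) and in replicate 1 of females at 0 µg/L (11 counts, 0.501 CPM), and ifnphi3 in the last alone (27 counts, 1.23 CPM).

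Receptors and kinases gave calls only in males at 40 µg/L against 0 µg/L. Across all lists, 12 genes were called higher and 7 lower there, of 116 tested (10.3% and 6.03%), where 8.38% and 7.25% of all genes were called. Of 6 tested class II cytokine receptor genes, il10rb, the shared receptor chain for interleukin 10 family cytokines, was higher, at 151.8, 146.2 and 138.8 CPM in males at 40 µg/L and 60.3, 90.5 and 92.1 CPM in males at 0 µg/L (0.85 ± 0.20 log2; edgeR adjusted p = 0.0332). Of 12 tested gp130 family genes none was called by edgeR and 1 had an unadjusted p under 0.05; DESeq2 called 1 higher and 1 lower. cntfr, the most abundant of these genes, measured 13.5, 35.0 and 27 CPM in males at 40 µg/L and 42.2, 42.4 and 33.2 CPM in males at 0 µg/L.

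The kinases parted. jak2a, which serves gp130 and interferon gamma receptors, was higher at 932.2, 606.7 and 602.9 CPM in males at 40 µg/L and 377.4, 243.9 and 232.4 CPM in males at 0 µg/L (1.32 ± 0.27 log2; edgeR adjusted p = 0.0242). jak1, which serves all interferon receptors in mammals, was lower at 22.2, 26.7 and 24.1 CPM at 40 µg/L and 51.4, 50 and 44.7 CPM at 0 µg/L (-1.0 ± 0.20 log2; edgeR adjusted p = 0.0231). The 3 tested kinases were jak1, jak2a and jak2b, and jak2b was not called.

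The 4 other STAT genes, stat4, stat5a, stat5b and stat6, were scarce, and in males at 40 µg/L stat4, stat5a and stat6 were each at 0 in replicates 1 and 3, so no median is given. edgeR and DESeq2 called none of them in males, and none had an unadjusted p under 0.05 in edgeR. DESeq2 gave stat4 no adjusted p there. stat5b, below growth hormone and prolactin receptors, measured 1.32, 1.13 and 5.72 CPM in males at 40 µg/L, against 8.58, 9.0 and 11.7 CPM in males at 0 µg/L, with no overlap. The exposed values lay under 3 times the rare-gene median in all 3 libraries. In females stat5b measured 6.61, 2.11 and 5.79 CPM at 0 µg/L, 1.96, 3.48 and 4.23 CPM at 40 µg/L, and 2.41, 5.73 and 5.31 CPM at 200 µg/L.

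Among 8 tested regulatory factor genes other than the members, irf2, which competes with IRF1 for its sites in mammals, was called in males, at 40.6, 48.8 and 29.9 CPM at 40 µg/L and 12.4, 16.8 and 13.8 CPM at 0 µg/L (1.47 ± 0.28 log2; edgeR adjusted p = 0.0190). irf8, the regulator of microglial identity, measured 10.6, 19.7 and 30.6 CPM in males at 40 µg/L and 7.87, 5.24 and 5.52 CPM at 0 µg/L, and was not called. Among 11 tested nucleic acid sensors and adaptors, tbk1, the kinase that activates IRF3, was called at 440.0, 500.0 and 517.3 CPM in males at 40 µg/L and 277.4, 333.1 and 348.7 CPM in males at 0 µg/L (0.60 ± 0.15 log2; edgeR adjusted p = 0.0381). mavs, the mitochondrial adaptor of RNA sensors, measured 9.35, 7.23 and 12.8 CPM at 40 µg/L and 28.3, 22.6 and 14.8 CPM at 0 µg/L, with no call.

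Interferon-stimulated effectors other than mxa and isg15 were counted next. Of 57 listed, 30 were in the files and 23 were tested in females. At 200 µg/L against 0 µg/L, 20 of the 23 had a log2 difference above 0, with a median of 1.44, and at 200 µg/L against 40 µg/L it was 20 of 23 with a median of 0.77. The medians of all genes were 0.00322 and 0.01. Over the 18 genes whose mean CPM exceeded the mean floor of the libraries compared, a limit chosen after seeing the data, the medians were 1.14 and 0.86. Of the 23, edgeR called none in either comparison, where it called 0.0556% and 3.93% of all genes. An unadjusted p under 0.05 was found for 2 and 3 of the 23, against 10.8% and 21.1% of all genes. DESeq2 called 0 and 3, against 2.6% and 11% of all genes. It gave no adjusted p to some genes of this list, which therefore could not be called. Among them were mxc, mxe, mxg and xaf1 in every female comparison. At 40 µg/L against 0 µg/L, 13 of 23 lay above 0, against 48.1% of all genes. There edgeR and DESeq2 called none, against 0.238% and 6.26% of all genes. There 1 had an unadjusted p under 0.05, against 15.3% of all genes. In males at 40 µg/L against 0 µg/L, 9 of 21 lay above 0 with a median of -0.19. Of all genes, 44.5% lay above 0 with a median of -0.161, both near the values of the effectors. Only 13 of the 21 had a mean CPM over the mean floor of the libraries compared. Of these 13, 6 lay above 0, with a median of -0.078. An absence of change of the effectors in males cannot be read from these values. edgeR called none of the 21, against 15.6% of all genes. Of these 21 genes, 2 had an unadjusted p under 0.05, against 30.8% of all genes. DESeq2 called 1 higher and 1 lower, against 24.8% of all genes in either direction.

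Single effectors show how uneven the libraries were. adar, the RNA-editing enzyme and the most abundant of the list, measured 201.0, 242.6 and 293.6 CPM in females at 0 µg/L, 227.9, 202.3 and 201.6 CPM at 40 µg/L, and 161.4, 154.0 and 168.1 CPM at 200 µg/L, the last group lying below both others. ifi27.1 measured 2.74, 42.2 and 69.8 CPM at 0 µg/L, 60.0, 8.33 and 232.9 CPM at 40 µg/L, and 121.2, 170.8 and 19.4 CPM at 200 µg/L, with overlap throughout. mxe, whose pattern was closest to that of mxa, measured 0.182, 0 and 0.693 CPM at 0 µg/L and 1.06, 0 and 0.924 CPM at 40 µg/L. At 200 µg/L mxe measured 5.69, 4.70 and 2.32 CPM and stood apart, though replicate 2 lay under its floor of 4.79 CPM. Neither adar, ifi27.1 nor mxe was called by edgeR in a female comparison.

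**Figure D4:**
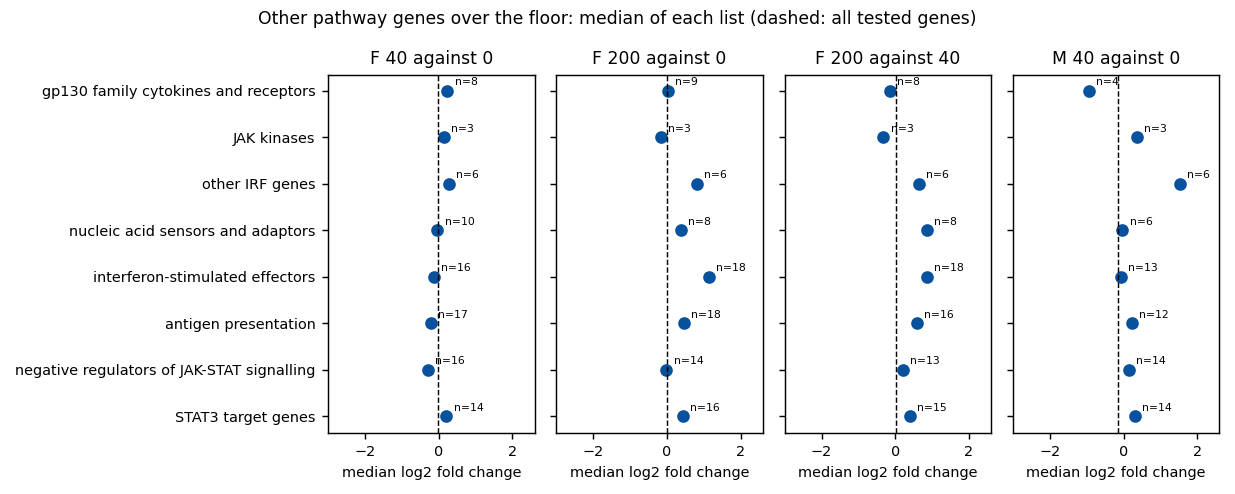
Median log2 fold change of the tested genes of each pathway list in 4 comparisons (points, with the number of genes as n), with the median of all tested genes as a dashed line (F female, M male, DBAN in µg/L). Genes whose mean CPM lay under the mean floor of the libraries compared, and lists with fewer than 3 genes left, are not drawn; interferon-stimulated effectors had a median of 1.14 in females at 200 µg/L against 0 µg/L.

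Across all lists, edgeR called 2 of 123 tested genes in females at 200 µg/L against 40 µg/L (1.63%), both higher. Of all genes, 1.87% were called higher and 2.06% lower there. An unadjusted p under 0.05 was found for 17 of the 123, against 21.1% of all genes. DESeq2 called 8 higher and 2 lower, against 11% of all genes in either direction. b2ml, a beta-2-microglobulin gene of the class I antigen-presenting complex, measured 217.5, 113.7 and 317.7 CPM at 200 µg/L and 68.5, 92.1 and 62.9 CPM at 40 µg/L (1.54 ± 0.33 log2; edgeR adjusted p = 0.0339). ptpn2a, a tyrosine phosphatase gene of the family that dephosphorylates JAKs and STATs, measured 57.8, 25.0 and 50.9 CPM at 200 µg/L and 13.9, 17.3 and 5.24 CPM at 40 µg/L (1.88 ± 0.44 log2; edgeR adjusted p = 0.0425). Females at 0 µg/L, with 101.5, 136.4 and 125.0 CPM of b2ml and 40.8, 37.6 and 36.0 CPM of ptpn2a, lay above the females at 40 µg/L for both genes. Of the 9 fits that each left out 1 female library, both calls held without replicate 2 at 40 µg/L or replicate 2 at 200 µg/L. Only b2ml held without replicate 1 or 2 at 0 µg/L, and neither gene without the others. Both calls were also lost with a replicate block, with the rare-gene median as covariate, and in the fit of only the groups compared. They held with DESeq2, median-of-ratios scaling, the other filters and counts divided by 4. No listed gene was called by edgeR in females at 40 µg/L or at 200 µg/L against 0 µg/L. In those comparisons 19 and 11 of 123 had an unadjusted p under 0.05, against 15.3% and 10.8% of all genes, and DESeq2 called 5 (3 higher and 2 lower) and 4 (all higher), against 6.26% and 2.6% of all genes.

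In males at 40 µg/L against 0 µg/L, 2 of 16 antigen presentation genes were higher and 2 lower, against 8.38% and 7.25% of all genes. cd74a, the invariant chain of class II molecules, measured 475.3, 835.9 and 609.6 CPM at 40 µg/L and 227.2, 324.7 and 284.4 CPM at 0 µg/L (1.2 ± 0.25 log2; edgeR adjusted p = 0.0242). psmb10, a subunit of the immunoproteasome, was higher too (1.27 ± 0.27 log2; edgeR adjusted p = 0.0280). b2ml was lower, at 74.7, 56.6 and 63.6 CPM at 40 µg/L and 137.1, 106.3 and 98.7 CPM at 0 µg/L (-0.82 ± 0.20 log2; edgeR adjusted p = 0.0421). mhc1zea, a class I heavy chain gene, was also called lower; it was at 0 in all 3 libraries at 40 µg/L and averaged 4.31 CPM at 0 µg/L, which is less than the mean floor of 6.42 CPM at 40 µg/L, so no fold is given. Summed microglial markers were 158.7 to 313.4 CPM in males at 40 µg/L and 131.8 to 232.7 CPM at 0 µg/L, and leukocyte markers 172.7 to 244.5 CPM and 85.7 to 100.7 CPM; their part in these values was not tested.

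Of 19 tested negative regulators other than socs3a, 1 was higher and 4 were lower in males at 40 µg/L against 0 µg/L. Of all genes, 8.38% were called higher and 7.25% lower there. socs3b, the second SOCS3 gene, was the one that rose, at 24.7, 30.6 and 24.7 CPM at 40 µg/L and 12, 10.3 and 12.3 CPM at 0 µg/L (1.21 ± 0.28 log2; edgeR adjusted p = 0.0320). Lower were pias4a, a SUMO ligase of the family of protein inhibitors of activated STAT (-1.10 ± 0.20; edgeR adjusted p = 0.0183), the phosphatase gene ptpn11b (-1.85 ± 0.39; 0.0258), and socs5a (-1.73 ± 0.42; 0.0388). The fourth, socs6b, fell by 1.61 ± 0.41 (0.0442) and is named after its value was seen. socs5a measured 10.0, 25.2 and 29.8 CPM in males at 40 µg/L and 86.2, 67.8 and 61.7 CPM in males at 0 µg/L. It was also the only listed gene that edgeR called between controls (1 of 128, 0.781%, against 4.4% of all genes), at 26.4, 22.6 and 32.6 CPM in females against these males (-1.40 ± 0.36; edgeR adjusted p = 0.0489). That call was lost in 10 of 19 alternatives, among them each fit without a control library of either sex, with adjusted p-values up to 0.192, while the log2 difference stayed between -1.55 and -1.25.

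**Figure D5:**
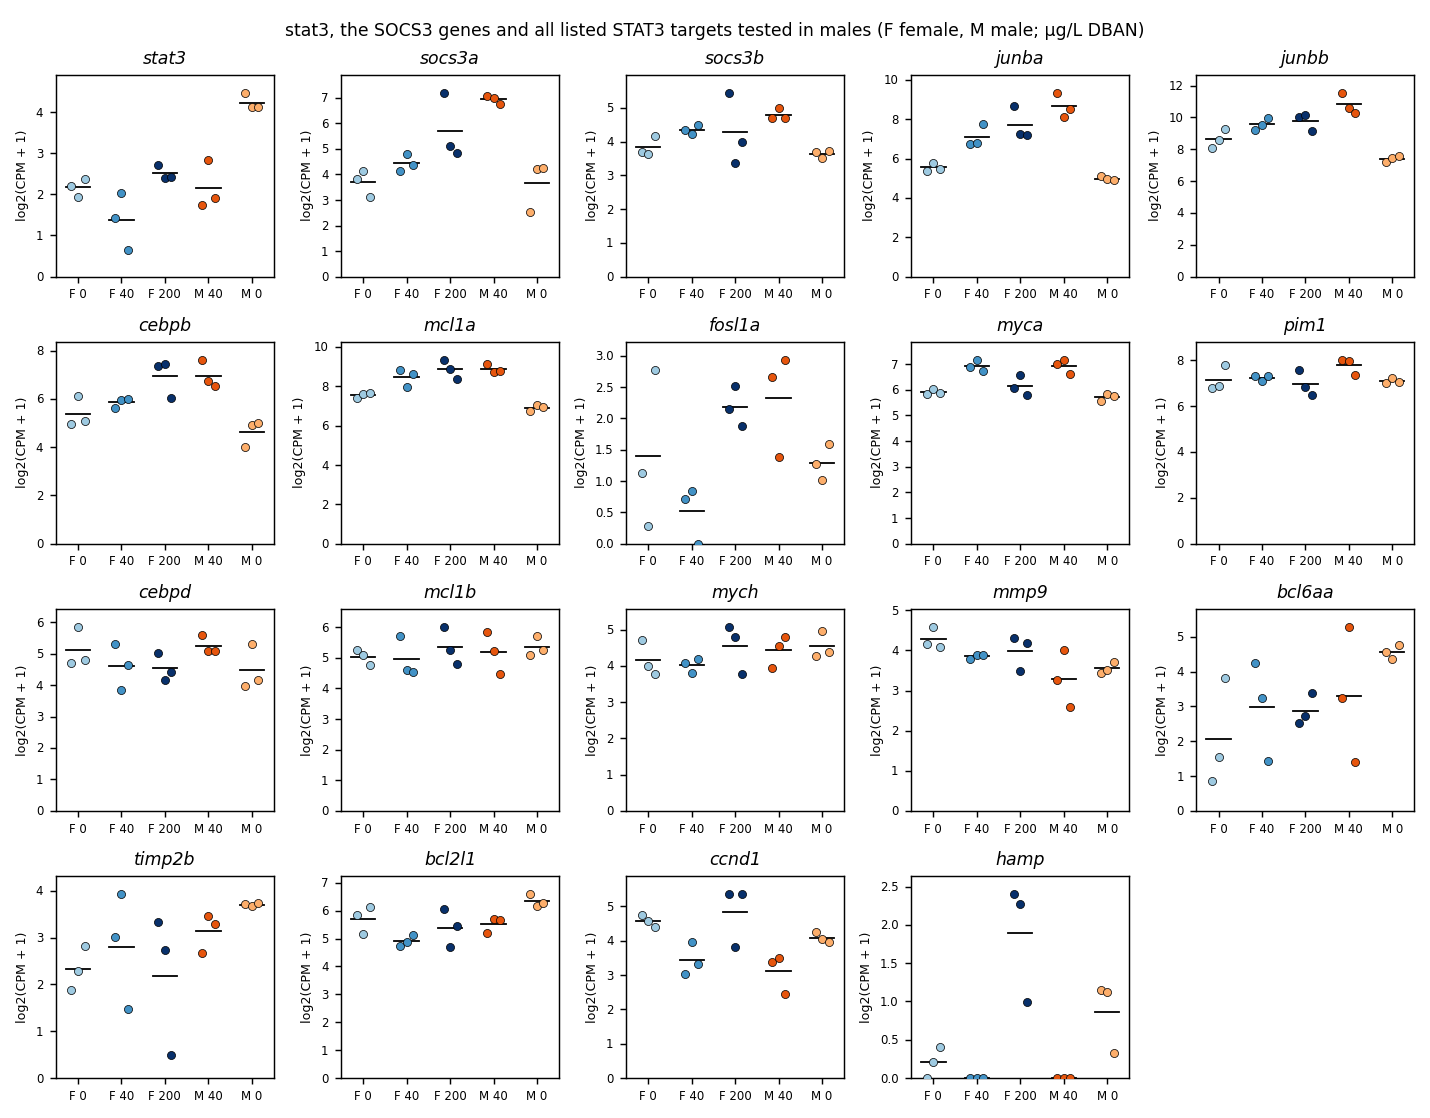
stat3, the SOCS3 genes and all 16 listed STAT3 target genes tested in males, in each library as log2(CPM + 1), with points for libraries and bars for group means of the log values (F female, M male, DBAN in µg/L). The targets run from the highest to the lowest fitted difference in males, from junba (644.3, 275.5 and 365.5 CPM at 40 µg/L, against 33.3, 29.8 and 28.7 CPM at 0 µg/L) to hamp, which was at 0 at 40 µg/L.

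Of 16 tested genes listed as STAT3 targets in mammals, 5 rose in males at 40 µg/L against 0 µg/L and none fell by edgeR, where 8.38% of all genes were called higher and 7.25% lower. DESeq2 called 6 higher and 2 lower (bcl2l1 and hamp), against 24.8% of all genes in either direction. Of the 16, 8 had a fitted log2 difference above 0, as had 44.5% of all genes. junba, an AP-1 transcription factor gene that is also an immediate early gene, measured 644.3, 275.5 and 365.5 CPM at 40 µg/L, against 33.3, 29.8 and 28.7 CPM at 0 µg/L (3.8 ± 0.34 log2; edgeR adjusted p = 0.00838). Its partner junbb measured 2981, 1542 and 1267 CPM, against 146.9, 174.4 and 189.0 CPM (3.5 ± 0.35 log2; edgeR adjusted p = 0.00838). mcl1a, a survival gene of the BCL2 family, measured 557.9, 429.2 and 441.8 CPM, against 107.6, 129.5 and 122.0 CPM (1.99 ± 0.16 log2; edgeR adjusted p = 0.00838). The growth regulator myca (1.24 ± 0.20; edgeR adjusted p = 0.0133) and the acute-phase regulator cebpb (2.38 ± 0.39; 0.0138), the last named after its value was seen, rose as well. Other listed targets, also named after their values were seen, lay below the controls without overlap, as did 27.5% of all genes. The survival gene bcl2l1 measured 35.5, 51.1 and 49.9 CPM in males at 40 µg/L, against 94.8, 71.4 and 76.2 CPM at 0 µg/L (edgeR adjusted p = 0.0529; DESeq2 0.0132). The cyclin gene ccnd1 measured 9.31, 10.3 and 4.48 CPM, against 18.0, 15.4 and 14.7 CPM (edgeR adjusted p = 0.177), and timp2b, a metalloproteinase inhibitor gene, 5.41, 10.0 and 8.87 CPM, against 12, 11.7 and 12.4 CPM (0.448). hamp, the hepcidin gene, was at 0 in all 3 exposed libraries, against 1.22, 1.17 and 0.253 CPM at 0 µg/L, which is under the mean floor of 6.42 CPM at 40 µg/L.

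In females the same STAT3 targets were not called by edgeR at either dose against 0 µg/L. junba measured 40.6, 54.6 and 43.0 CPM at 0 µg/L, 103.9, 107.8 and 214.9 CPM at 40 µg/L, and 403.6, 152.9 and 147.8 CPM at 200 µg/L. Both exposed groups lay above the controls without overlap. Of 17 tested targets, 7 at 40 µg/L and 4 at 200 µg/L had an unadjusted p under 0.05 against 0 µg/L, where 15.3% and 10.8% of all genes had one, and DESeq2 called 3 and 4, all higher, where it called 6.26% and 2.6% of all genes. At 200 µg/L, 13 of 17 lay above 0 with a median log2 difference of 0.44, while 50.2% of all genes lay above 0.

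The male calls of these lists shared the limits of stat3 and socs3a. With the rare-gene median as covariate, none of the 19 called pathway genes kept an adjusted p under 0.05, nor did any of the genes tested. The fitted sizes moved unequally: the log2 difference became 4.34 for junba, 4.79 for junbb, 2.2 for mcl1a, -1.18 for pias4a and -1.02 for jak1, but 0.33 for tbk1 and -0.17 for socs6b. Without replicate 1, 2 or 3 at 0 µg/L, 4, 3 and 5 of the 19 were still called, and without replicate 1, 2 or 3 at 40 µg/L it was 12, 15 and 15. junba, junbb and mcl1a were called in all 6 of these fits.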

How the data were processed

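Poly(A) RNA of zebrafish brain was measured in 15 libraries. The deposited values are counts per gene, not normalized, in 2 tables of 14971 genes each; every column of values was used. The submitters' processing notes list STAR, StringTie, DESeq2, FastQC and Picard; their roles, the genome build, the annotation, the use of strand and the treatment of shared reads are not given in the sources used here. Positions are those of the deposited tables.

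Some members of this gene group are not reported here. The genes and the pathway and marker lists were chosen with earlier results of these data known. The tests on these counts used edgeR 4.0.16 under R 4.3.3 (which uses limma 3.58.1): filterByExpr, TMM scaling, robust quasi-likelihood F test and Benjamini-Hochberg adjustment over all genes tested, at a threshold of 0.05. The 9 female libraries were fitted together and the 6 male libraries alone; a joined fit of 12 libraries gave the contrast of the 40 µg/L effects and that of the control sexes. Standard errors were approximated as the log2 fold change over the root of F. CPM were scaled with TMM factors over all 15 libraries. Fold changes of members are given where the unadjusted p was under 0.05 (15 of 42), and levels elsewhere. Floors of 3 rare-gene medians cover counting error only.

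Named from each pathway list were up to 4 genes past the threshold in a comparison, by smallest p, and the 2 with the highest mean CPM; a few others are marked where named, or are neighbours or nearest genes of a member. Likeness is the Pearson correlation of log2(CPM + 1). Same-numbered libraries did not deviate together (correlations of deviations -0.126 to 0.0824), so the numbers were not taken as pairs. Alternatives were DESeq2 1.42.0, median-of-ratios scaling, other filters, counts divided by 4, a replicate block, the rare-gene median as covariate, fits of only the groups compared, and leaving out each library. Genes to which DESeq2 gave no adjusted p were counted as not called, and its percentages are of all genes tested. The scripts were tested on simulated counts. Promoter sequences were not used here.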

Additional observations from a re-analysis of the deposited data

How the results depend on the processing

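Median-of-ratios scaling, a filter of 1 CPM in 3 libraries and division of the counts by 4 kept each call of the 4 called members and each count of members, and changed a count of genes by over 1.5 times once: division by 4 called 125 genes in females at 40 µg/L against 0 µg/L, in place of 30. In that comparison DESeq2 called 789 genes, no filter on low counts 98, the replicate block 0, the rare-gene covariate 2, only the groups compared 19, and replicate 2 alone at 40 µg/L 0. For females at 200 µg/L against 0 µg/L, with 7 genes, the counts were 327 with DESeq2, which also called 2 members (mxa, 0.00635, and socs3a, 0.00176), 2 with the block, 3 with the covariate and 4 with only the groups compared. At 200 µg/L against 40 µg/L, with 495 genes and 2 members, they were 1396 genes and 4 members with DESeq2 (irf1b, 0.0342, and socs3a, 0.0252, being added), 76 and 0 with the block, 118 and 1 with the covariate, 61 and 0 with only the groups compared, and 6 and 0 with replicate 2 alone at 40 µg/L. Of the settings that kept all libraries, mxa lost its call with the block (0.11), the covariate (0.0842) and only the groups compared (0.08), and irf9 with the block (0.09) and only the groups compared (0.0963). For males at 40 µg/L against 0 µg/L, with 1947 genes and 2 members, DESeq2 called 3093 genes, the block 973 genes and 1 member (stat3 lost, 0.0772), and the covariate 0 genes and 0 members; with the covariate stat2 turned to 1.39 and the median of all genes to 0.435, where it was -0.161, and it was -0.272 without the filter and -0.4 with the block. The contrast of the 40 µg/L effects, with 0 genes and 0 members, had 456 genes and 1 member (socs3a, 0.012) with DESeq2. Between the controls, with 579 genes and 0 members, DESeq2 called 1678 genes and 2 members (stat3, 0.00355, and isg15, 0.027), and the block 283 genes. The replicate numbers share only a name, so these block values do not measure weaker effects. Leaving out 1 library at a time, genes called ranged from 0 to 289 (females at 40 against 0 µg/L), 1 to 10 (200 against 0 µg/L), 1 to 596 (200 against 40 µg/L), 286 to 3144 (males), 0 to 369 (contrast of the effects) and 0 to 904 (controls); members called ranged from 0 to 0 at 200 against 40 µg/L, 0 to 2 in males and 0 to 1 between the controls. Of the 27 member fold changes not reported, 12 changed sign under at least 1 alternative and 0 passed the threshold under any. Depth limits the low members: 4 counts were worth 0.219 to 0.376 CPM in females at 200 µg/L and 0.0924 to 0.122 CPM at 40 µg/L, and in males at 40 µg/L 8 of 21 member values lay under the floor. The causes of these changes were not tested.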
